A study of Bos grunniens and Bos grunniens x Bos taurus with 6 samples.

Results

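Testis of adolescent yak (Bos grunniens) at 18 months was compared with testis of prepubertal yak at 6 months, in 4 of the 6 single-cell libraries of the series. Barcodes with at least 300 detected genes and at most 20% of their UMIs (unique molecular identifiers, each standing for 1 captured RNA molecule) on mitochondrial features were kept, and their counts were added up per library. This left 22456 of the 31071 barcodes that passed the same filter in all 6 libraries. The prepubertal group held replicates 1 and 2 and the adolescent group replicates 3 and 4; no treatment or genotype separates the groups in the labels, and both ages are described there as not yet sexually mature. All 4 went through the same handling: tissue stored frozen was thawed, broken up with collagenase IV plus hyaluronidase, treated with trypsin, strained and kept in culture medium. Whether 2 libraries of the same age represent 2 different animals is not in the labels, and p-values therefore reflect only how far these 4 libraries vary, which may be technical. The label field for the cell line reads "Germ cell", whereas the tissue is testis and barcodes of spermatogonium-like clusters were between 0.638% and 16.9% of a library.

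In the seminiferous tubule, spermatogonial stem cells renew themselves or differentiate, and at puberty their progeny enter meiosis and later form sperm. Sertoli cells nurse the germ cells inside the tubule, while Leydig cells, which make testosterone, lie with fibroblast-like stroma and vessels between the tubules. Before puberty the tubules hold mainly immature Sertoli cells and few germ cells.

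The libraries held between 6181 and 8946 barcodes before filtering and between 14892486 and 18444432 UMIs in kept barcodes. They shared between 8 and 16 barcodes per pair. The mitochondrial limit took more at 18 months (38.0% and 20.3% of barcodes that met the gene minimum) than at 6 months (2.30% and 3.56%). Kept barcodes still carried 9.66% and 8.19% mitochondrial UMIs at 18 months, against 3.43% and 4.31% at 6 months. The UMIs were spread over more genes at 18 months: 50% of them fell on 225 genes in replicate 3 and 89 in replicate 4, against 55 and 60 genes at 6 months. Counts of the 2 libraries of an age differed by far more than counting error, the chi-square divided by its degrees of freedom being 61.7 at 6 months and 207.1 at 18 months. Replicate 3 stood apart from replicate 4 in its cell classes, as described next.

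Spermatogonium-like barcodes held a larger part of the UMIs of both adolescent libraries, and stroma-like barcodes a smaller part. Spermatogonium-like clusters, named from UCHL1, ZBTB16, DMRT1 and other markers, held 0.998% and 0.934% of the kept UMIs at 6 months, 42.1% in replicate 3 and 18.1% in replicate 4. The barcodes behind them numbered 51 and 58 at the younger age and 718 and 534 at the older. Both adolescent libraries lay above both prepubertal ones, and replicate 3 lay furthest above. Spermatocyte markers came next in these clusters (12, 18 and 24). Their mean log2 fold over the median of other clusters was 1.93, 2.12 and 2.27, against 2.52, 3.15 and 3.04 for spermatogonium markers. No cluster was named spermatocyte-like, and whether the class holds cells in meiosis was not tested. Cluster 25 stayed unnamed because spermatogonium markers had no lead over spermatocyte markers there, with 2.22 for both. Stroma-like barcodes, the fibroblast-like cells between the tubules, held 39.7% and 30.7% of UMIs at 6 months, 13.6% in replicate 3 and 9.79% in replicate 4. As a share of barcodes they were 59.8% and 43.3% at 6 months, 41.0% in replicate 3 and 29.8% in replicate 4, so that replicates 2 and 3 lay close together. Endothelial-like barcodes of the vessel wall held 5.92% and 7.93% at 6 months against 21.3% and 18.1% at 18 months. For Sertoli-like barcodes the ages overlapped, with 43.6% and 30.4% at 6 months, 5.22% in replicate 3 and 39.7% in replicate 4. Leydig-like barcodes numbered 53 and 9 at 6 months and 0 in both adolescent libraries, which allows a share of up to 0.0707% and 0.0712% of barcodes. A comparison of 2 libraries with 2 cannot pass an exact permutation test, so the shares are given as values. The mitochondrial limit removed more barcodes at 18 months. There the median mitochondrial share of kept barcodes was 14.6% and 13.8% in stroma-like and 6.11% and 3.22% in spermatogonium-like barcodes. It was 10.8% and 10.1% in Sertoli-like and 7.56% and 5.64% in endothelial-like barcodes. Class shares were not computed at another mitochondrial limit, so the part of the limit in them was not tested.

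**Figure D1:**
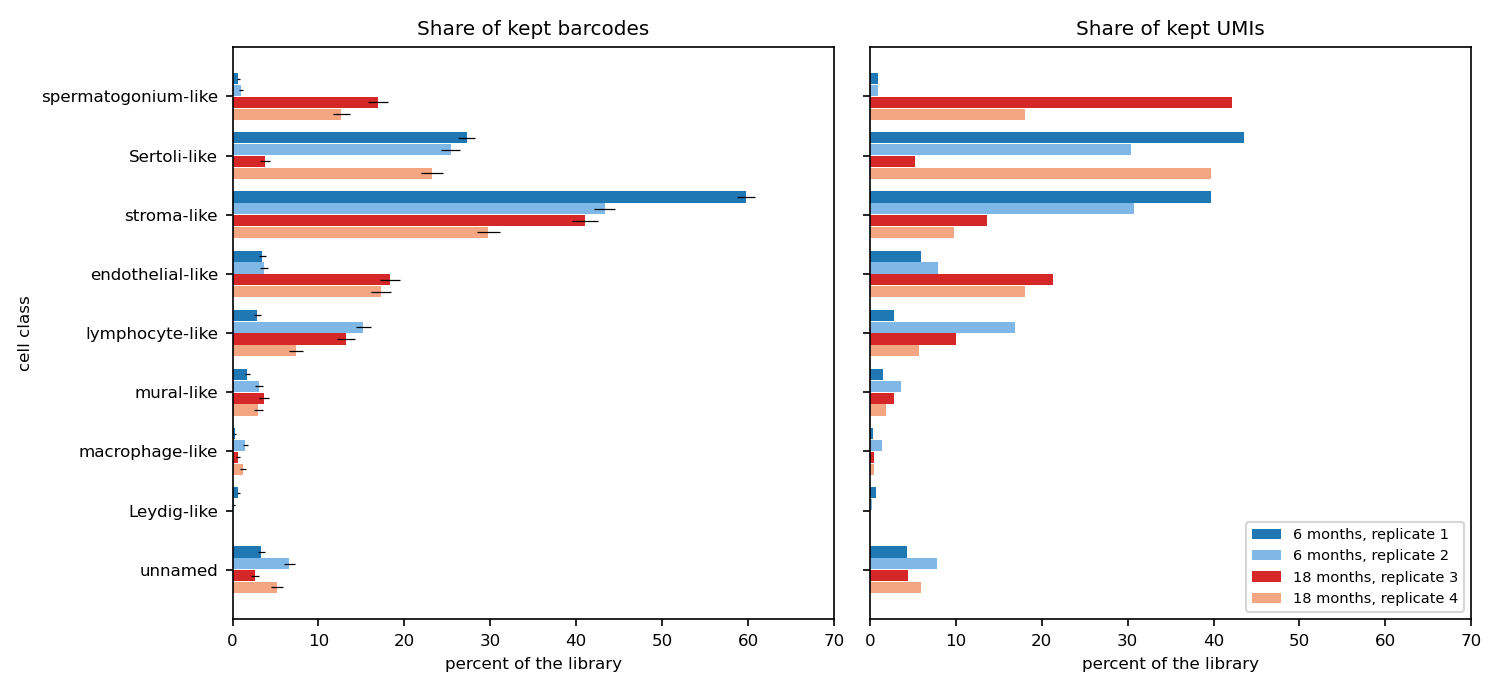
Share of each cell class among kept barcodes (left, percent of the library, with exact 95% binomial intervals that cover counting error only) and among kept UMIs (right, percent of the library), 1 bar per library. Spermatogonium-like barcodes held 0.998% and 0.934% of UMIs at 6 months and 42.1% and 18.1% at 18 months, while Sertoli-like barcodes held 5.22% in replicate 3 and 39.7% in replicate 4.

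Over whole libraries, 261 of 13692 tested genes rose from 6 to 18 months (1.91%) and 97 fell (0.708%), by edgeR's quasi-likelihood test at a Benjamini-Hochberg adjusted p below 0.05. In sums over whole libraries, fewer cells of a type and less RNA per cell cannot be told apart. Pooled over the 4 libraries, 259 of the 261 genes that rose (99.2%, against 48.4% of all tested genes) had the largest share of their UMIs in spermatogonium-like barcodes. Of the UMIs of these 259 genes, 32.9% and 32.2% lay in that class at 6 months and 87.1% and 81.7% at 18 months. Of the 97 genes that fell, 67 had the largest share of their UMIs in stroma-like barcodes (69.1%, against 24.4% of all tested genes), 29 in Sertoli-like barcodes and 1 in Leydig-like barcodes. The class of a gene was set from UMIs pooled over both ages, so it is not independent of the direction of change. Spermatogonium-like barcodes held 323096 UMIs at 6 months and 10427407 at 18 months, stroma-like barcodes 11892970 and 3969292, and Sertoli-like barcodes 12564390 and 6946550. Among the genes that rose, 79 carried no symbol, as did 21 of those that fell. All 358 had both libraries of an age on the same side of both of the other age, as did 28.5% of all tested genes in the upward and 28.4% in the downward direction. DESeq2, which called 6.16% of tested genes higher and 3.64% lower, also called all 261 and all 97 in the same direction.

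The counts depended on single libraries and on the scaling. Without replicate 2 the same edgeR test called 0 genes, with 2146 at an unadjusted p below 0.05, and DESeq2 called 168 higher and 108 lower. Without replicate 1 it called 6 higher and 7 lower, without replicate 3 it called 26 and 4, and without replicate 4 it called 1539 and 1411. The TMM scaling (trimmed mean of M values) used for the folds sets a typical gene near 0, and the median over all genes was -0.04. Scaled by library totals instead, the median was 1.03, 2849 genes were higher (20.8%) and 81 lower (0.592%); all 261 risen genes stayed higher, and 43 of the 97 fallen genes stayed lower. Levels below are in CPM, counts scaled by the total of a library or class. A fold computed from whole-library CPM is about 1.02 (log2) above the TMM fold beside it. Inside a class the gap is another one: the median of all genes was 0.41 by totals and 0.15 with TMM in spermatogonium-like barcodes, 0.53 and 0.04 in stroma-like barcodes, and 1.10 and 0.08 in Sertoli-like barcodes.

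Counts of list members below are those of the edgeR test. Over all 13692 tested genes that test called 1.91% higher and 0.708% lower, with 3078 at an unadjusted p below 0.05. DESeq2 called 6.16% higher and 3.64% lower over the same genes. Of the 5 lists of spermatogonial, meiotic and piRNA genes described next, DESeq2 called 13, 8, 10, 9 and 14 members higher and 0 lower, and edgeR without replicate 3 called 0, 2, 1, 0 and 2 higher. Without replicate 2 edgeR called 0 members of every list.

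Among genes of spermatogonial stem cells and progenitors, 5 of 20 tested members rose and 0 fell, with a median log2 fold change of 2.27 against -0.04 over all genes. TRIM71, an RNA-binding protein of embryonic stem cells, had 0.217 and 0.134 CPM at 6 months and 21.1 and 6.36 at 18 months, a log2 fold change of 5.03 ± 0.63 (SE; edgeR adjusted p = 0.0334). It rested on 4 and 2 UMIs at 6 months and 385 and 96 at 18 months. LIN28B, which blocks maturation of the let-7 microRNAs, had 0.542 and 0.336 CPM at 6 months and 35.3 and 12.3 at 18 months (4.56 ± 0.53; edgeR adjusted p = 0.0334). Both adolescent libraries lay far above both prepubertal ones for these 2 genes, with replicate 3 the highest. ELAVL2, an RNA-binding protein, had 3.90 and 1.41 CPM at 6 months and 143 and 49.1 at 18 months (3.98 ± 0.61; edgeR adjusted p = 0.0380). NANOS3, which represses translation in early germ cells, had 3.47 and 3.02 CPM at 6 months and 39.9 and 25.7 at 18 months (2.27 ± 0.35; edgeR adjusted p = 0.0380). LHX1, a homeobox factor, was the other member that rose (4.49 ± 0.72; edgeR adjusted p = 0.0394). UCHL1, a ubiquitin hydrolase and the most abundant of these markers, had 110 and 79.8 CPM at 6 months and 806 and 953 at 18 months, but did not pass (2.27 ± 0.59; edgeR adjusted p = 0.0905). ZBTB16, a stem cell factor, did not pass either, with 5.26 and 5.44 CPM at 6 months and 63.8 and 13.8 at 18 months (1.62 ± 0.51; edgeR adjusted p = 0.133).

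Genes of spermatogonial differentiation gave the largest rise of a gene with a symbol and at least 20 CPM in both adolescent libraries. Of 12 tested members 6 rose and 0 fell, with a median of 2.64. DMRTB1, a DM-domain factor that acts before meiosis, had 0.325 and 0.201 CPM at 6 months, from 6 and 3 UMIs, and 26.7 and 24.7 at 18 months, from 488 and 372 UMIs. Its log2 fold change was 5.57 ± 0.54 (SE; edgeR adjusted p = 0.0334), and the adolescent replicates lay close together. DMRT1, a factor of the same family found in spermatogonia and Sertoli cells, had 4.99 and 5.51 CPM at 6 months and 113 and 82.9 at 18 months (3.20 ± 0.36; edgeR adjusted p = 0.0334). TKTL1, a transketolase-like gene of spermatogonia, was the most abundant of the 12 largest rises, with 13.6 and 8.19 CPM at 6 months and 440.2 and 219 at 18 months (3.80 ± 0.49; edgeR adjusted p = 0.0334). BOLL, an RNA-binding protein of the DAZ family, had 0.542 and 0.537 CPM at 6 months and 20.2 and 9.35 at 18 months (3.64 ± 0.45; edgeR adjusted p = 0.0334). LIN28B and DMRTC2 were the other members that rose. KIT, the receptor of differentiating spermatogonia that endothelial-like barcodes also held, had 2.33 and 4.23 CPM at 6 months and 20.8 and 6.23 at 18 months and did not pass (0.87 ± 0.49; edgeR adjusted p = 0.342).

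Meiotic genes rose in both of their lists. The spermatocyte markers summed to 25.4 and 37.1 CPM at 6 months and 387 and 166 at 18 months, and 5 of 10 tested rose. Of the synaptonemal complex and meiotic cohesin genes, which pair and hold chromosomes in meiosis, 7 of 19 rose and 0 fell, with a median of 2.30. SMC1B, a meiotic cohesin, had 4.66 and 4.77 CPM at 6 months and 171 and 78.5 at 18 months (3.61 ± 0.37; edgeR adjusted p = 0.0334). SYCP1, the transverse filament of the synaptonemal complex, had 4.17 and 2.28 CPM at 6 months and 140 and 43.2 at 18 months (3.62 ± 0.52; edgeR adjusted p = 0.0360). For each of these genes replicate 3 lay highest, and replicate 4 still lay well above 6 months. SYCP2, SYCP3, STAG3, TEX11 and FKBP6 were the other members that rose, by 2.33 to 4.87. Of the recombination genes, 4 of 17 rose and 0 fell, with a median of 2.21. ANKRD31, a partner of REC114 in the machinery that starts DNA breaks, had 1.63 and 1.07 CPM at 6 months and 109 and 21.0 at 18 months (4.31 ± 0.65; edgeR adjusted p = 0.0377). REC114 itself had 5.75 and 6.04 CPM at 6 months and 116 and 63.0 at 18 months (2.84 ± 0.34; edgeR adjusted p = 0.0334). SPATA22, which acts in repair of these breaks, and ZCWPW1, a histone reader, were the other 2, at 3.33 and 2.21. DMC1 and SPO11, the strand exchange and break enzymes, stayed under 10 CPM in every library and did not pass (edgeR adjusted p = 0.0717 and 0.0775).

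The piRNA pathway, in which small RNAs silence transposons in germ cells, had 9 of 18 members that rose and 0 that fell, with a median of 3.09. MAEL had 5.96 and 5.10 CPM at 6 months and 158 and 84.0 at 18 months (3.35 ± 0.37; edgeR adjusted p = 0.0334). RNF17, a Tudor-domain protein, had 2.28 and 2.15 CPM at 6 months and 137 and 39.7 at 18 months (4.12 ± 0.48; edgeR adjusted p = 0.0334). The libraries of the ages did not overlap for either gene. TDRD1, TDRD5, TDRD9, TDRKH, ASZ1, GPAT2 and FKBP6 were the others that rose, by 2.66 to 3.76. PIWIL2 and PIWIL4, the Argonaute proteins that carry piRNAs, had folds of 2.84 ± 0.63 and 3.10 ± 0.70 and did not pass (edgeR adjusted p = 0.0678 and 0.0703).

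Of the sperm and spermatid genes 0 passed. Of 30 listed, 20 were in the files and 8 were tested, of which 0 passed in either direction in the edgeR test, with a median of 1.78, 5 at an unadjusted p below 0.05 and 3 called higher by DESeq2. The spermatid markers summed to 1.41 and 1.34 CPM at 6 months and 17.8 and 8.42 at 18 months, most of it from SPACA1 and CRISP2. Other members were more abundant: ODF2, a sperm tail protein, had 8.51 and 9.33 CPM at 6 months and 45.6 and 16.2 at 18 months (0.63 ± 0.37; edgeR adjusted p = 0.359). ZPBP, which binds the egg coat, had 3.31 and 2.89 CPM at 6 months and 24.6 and 12.9 at 18 months (edgeR adjusted p = 0.0798). The acrosome gene ACRV1 was at 0 in all 4 libraries, and TNP1, a transition protein of spermatid chromatin, reached at most 0.109 CPM. Of 25 replication and mitosis genes, 2 rose and 0 fell, with a median of 0.67, and DESeq2 called 6 higher and 0 lower. CENPF, a kinetochore protein, had 9.76 and 15.6 CPM at 6 months and 223 and 115 at 18 months (2.64 ± 0.40; edgeR adjusted p = 0.0380). The kinetochore motor CENPE was the other, at 2.33 ± 0.42 (edgeR adjusted p = 0.0467). PCNA and MCM7 of DNA replication had folds of 0.29 ± 0.37 and 0.21 ± 0.38 and did not pass (edgeR adjusted p = 0.675 and 0.762).

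Among the 12 largest rises were also genes outside the lists. BEND4, a BEN-domain gene, had 1.30 and 1.07 CPM at 6 months and 99.9 and 26.4 at 18 months (4.51 ± 0.53; edgeR adjusted p = 0.0334). RADX, which binds single-stranded DNA at replication forks, had 1.52 and 1.68 CPM at 6 months and 98.0 and 47.6 at 18 months (4.40 ± 0.38; edgeR adjusted p = 0.0334). RBM46, an RNA-binding protein needed to enter meiosis, had 3.25 and 1.01 CPM at 6 months and 99.2 and 50.8 at 18 months (4.00 ± 0.60; edgeR adjusted p = 0.0377). Each of these had both adolescent libraries more than 10 CPM above both prepubertal ones. ACTL8, an actin-like gene, and TUBA3D, an alpha-tubulin of testis, rose by 3.80 ± 0.42 and 3.68 ± 0.41 (edgeR adjusted p = 0.0334 for both).

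**Figure D2:**
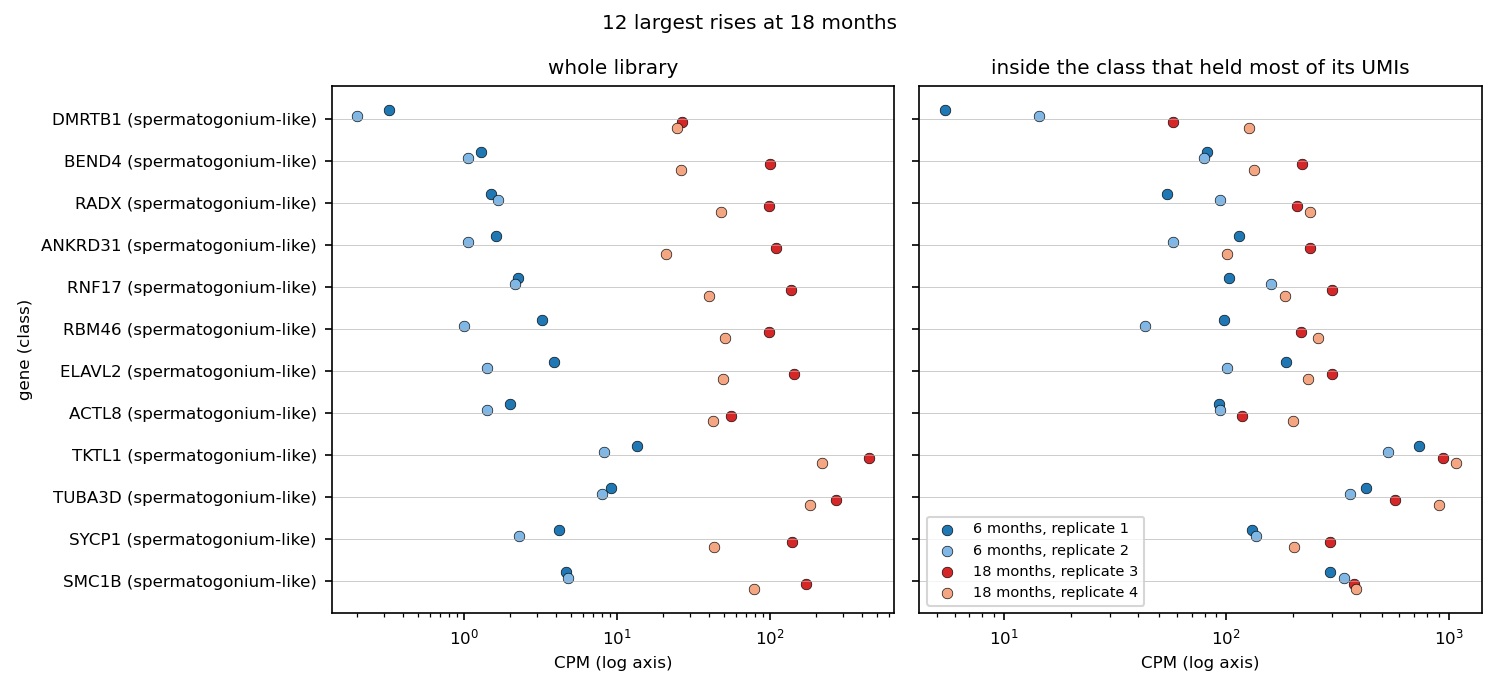
CPM (log axis) of the 12 genes with the largest rise, in whole libraries (left) and inside the class with the largest share of their UMIs, spermatogonium-like for all 12 (right), 1 point per library. TKTL1 went from 8.19 and 13.6 to 219 and 440.2 CPM in whole libraries, while inside the class the ages lay closer together; DMRTB1 stayed apart in both panels.

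Inside spermatogonium-like barcodes the same genes differed far less between the ages. The clusters of this class were named from raised markers that include TKTL1, DMRT1, LIN28B, NANOS3 and ELAVL2. Levels inside the class are therefore not independent of how its barcodes were chosen. The 259 genes together took 600 and 542 CPM of the prepubertal libraries, 13173 of replicate 3 and 6364 of replicate 4. Inside the class they took 19776 and 18686 CPM at 6 months, 27237 in replicate 3 and 28698 in replicate 4. The ages did not overlap on either scale and lay closer together inside the class. TKTL1 had 739 and 532 CPM inside the class at 6 months and 941 and 1084 at 18 months. MAEL had 304 and 317 CPM inside the class at 6 months and 333 and 392 at 18 months, and SMC1B had 293 and 338 against 375 and 384. REC114 had 304 and 309 CPM inside the class at 6 months and 240 and 287 at 18 months, so that its ages were in the opposite order. Pooled over the libraries of an age and scaled by class totals, 207 of the 259 genes had at least 3 UMIs at each age inside the class, with a median log2 ratio of 0.55, against 4.23 for them in whole libraries and 0.24 inside the class for all genes measured that way.

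A test inside the class, on counts summed over its barcodes per library, was added after the library results were seen. It uses the same libraries and so gives no independent evidence of direction. Of the 259 genes 253 could be tested, and 3 passed (1.19%, against 0.274% of all 8770 genes tested there). These were DMRTB1, CENPF and ENSBGRG00000022321, a gene without a symbol. DMRTB1 had 5.43 and 14.4 CPM inside the class at 6 months, from 3 UMIs in all, and 57.3 and 127 at 18 months (3.10 ± 0.81; edgeR adjusted p = 0.0261). CENPF had 125 and 64.7 CPM inside the class at 6 months and 482 and 596 at 18 months (2.26 ± 0.54; edgeR adjusted p = 0.00778). The median fold of the 253 was 0.45 inside the class, against 0.15 for all genes tested there and 3.25 for the same 253 in whole libraries, and 180 of the 253 were above 0. The folds of 14 of them, with 0 UMIs in the class at 6 months, depend on the prior count. With suspected doublets removed, 0 of 252 passed in the edgeR test (40 at an unadjusted p below 0.05), and DESeq2 on all barcodes called 2. Leaving out replicate 1 or replicate 2 also gave 0, and leaving out replicate 3 or replicate 4 gave 7 and 5. Over all 8770 genes tested inside the class 24 were higher, 8 of them mitochondrial features, and 23 were lower. Of the 23, 15 had the largest share of their UMIs in Sertoli-like barcodes, and the source of those UMIs was not tested. The class was sampled by 109 barcodes at 6 months, which limits the precision of these folds. Its clusters differed between the libraries: the deepest, cluster 24 with a median of 23005 UMIs per barcode, held 4 and 1 barcodes of the prepubertal libraries, 192 of replicate 3 and 28 of replicate 4. The median mitochondrial share of the class was 0.455% and 0.222% at 6 months and 6.11% and 3.22% at 18 months, and its part in these values was not tested.

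The genes of spermatogonium-like barcodes were also higher at 18 months outside that class. The 259 genes took 407 and 371 CPM of all other barcodes at 6 months, 2946 in replicate 3 and 1426 in replicate 4. In whole libraries without spermatogonium-like barcodes, 215 of the 261 risen genes could be tested and 213 kept a fold above 0, with a median of 2.11. The edgeR test on those sums called 0 genes in either direction, with 1369 at an unadjusted p below 0.05, and DESeq2 called 143 higher and 117 lower. CENPF and IGF2BP3 were the 2 named genes whose fold turned, to -0.045 and -0.067. Unnamed cluster 25, which carried germ cell markers, held 34 and 29 barcodes at 6 months and 78 and 83 at 18 months. With that cluster removed as well the edgeR count was again 0, with 1052 at an unadjusted p below 0.05. Where these UMIs came from was not tested.

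**Figure D3:**
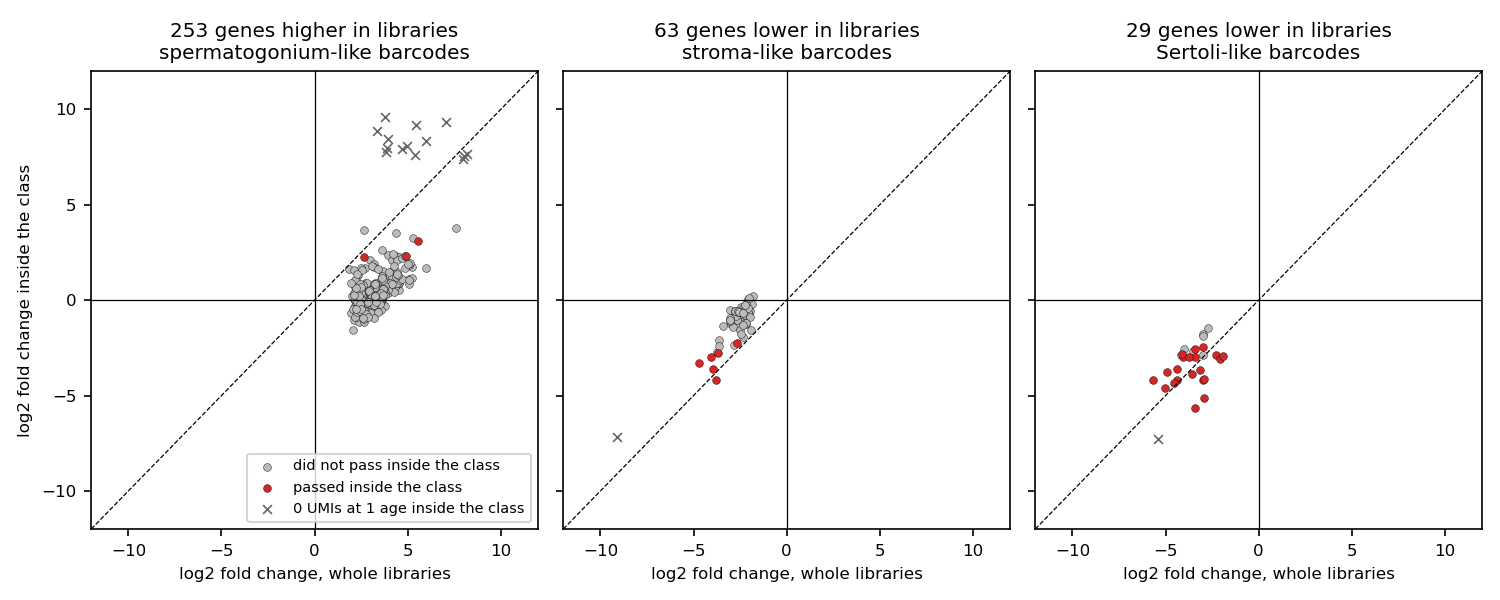
Log2 fold change at 18 against 6 months in whole libraries (x axis) and inside the class with the largest share of a gene's UMIs (y axis), 1 point per gene; the dashed line marks equal folds, red points passed the test inside the class, and crosses, whether they passed or not, had 0 UMIs in the class at 1 age, so that their fold inside it depends on the prior count. Genes of spermatogonium-like barcodes lie near 0 inside the class (median 0.45 of 253), genes of stroma-like barcodes somewhat below 0 (-0.81 of 63), and genes of Sertoli-like barcodes near the line (-3.00 of 29).

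Matrix genes were among those that fell. Of 38 tested matrix glycoproteins and proteoglycans 5 fell and 0 rose, with a median of -1.51 (-0.32 by library totals), and of 23 collagen chains 3 fell and 0 rose, with a median of -1.15 (0.00 by library totals). DESeq2 called 1 higher and 16 lower among the 38 and 0 higher and 9 lower among the 23, and without replicate 3 edgeR called 0 of either list. DCN, decorin, had 528 and 472 CPM at 6 months and 158 and 122 at 18 months, a fold of -2.86 ± 0.53 (edgeR adjusted p = 0.0467). LUM, lumican, had 27.1 and 13.97 CPM at 6 months and 2.84 and 0.663 at 18 months (-4.73 ± 0.61; edgeR adjusted p = 0.0334). Replicate 4 lay lowest for both, and the ages did not overlap. BGN, LAMC3 and NID1, a proteoglycan, a laminin chain and a basement membrane linker, fell by 2.41, 2.34 and 2.00. COL5A1, a fibril collagen, had 144 and 91.7 CPM at 6 months and 51.1 and 30.2 at 18 months (-2.62 ± 0.44; edgeR adjusted p = 0.0425). COL6A1 and COL6A6, chains of the microfibril collagen, fell by 2.07 and 3.93. By library totals BGN, LAMC3 and COL6A1 did not pass (edgeR adjusted p = 0.0788, 0.0624 and 0.163). The stroma marker list had 3 of 10 tested members lower and 0 higher, and summed to 1261 and 1003 CPM at 6 months and 719 and 354 at 18 months.

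Other named genes with the largest share of their UMIs in stroma-like barcodes fell as well. TAC1, the precursor of the neuropeptide substance P, had 24.6 and 24.4 CPM at 6 months and 4.54 and 1.92 at 18 months (-4.04 ± 0.38; edgeR adjusted p = 0.0334). IGFBP3, which binds insulin-like growth factors, had 167 and 200.2 CPM at 6 months and 25.3 and 31.9 at 18 months (-3.61 ± 0.55; edgeR adjusted p = 0.0380). CXCL11, an interferon-inducible chemokine, had 21.2 and 19.1 CPM at 6 months and 2.35 and 3.31 at 18 months (-3.77 ± 0.52; edgeR adjusted p = 0.0349). In each case both prepubertal libraries lay more than 10 CPM above both adolescent ones. TMEM190, a membrane protein, EVC2, a ciliary protein of hedgehog signalling, and OLFML3, a secreted olfactomedin-like protein, fell by 3.41, 2.87 and 2.81, but EVC2 did not pass by library totals (edgeR adjusted p = 0.0629). Of the other 22 interferon response genes tested 0 passed in the edgeR test, with a list median of -0.42 (0.59 by library totals). Over all 23, 4 were at an unadjusted p below 0.05 and DESeq2 called 3 lower.

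Inside stroma-like barcodes part of these falls was left. Of the 67 genes 63 could be tested inside the class and 6 passed (9.52%, against 0.15% lower among all 9342 genes tested there), while 60 of the 63 had a fold below 0. The 67 were chosen for their fall in the same libraries, so these shares give no independent evidence of direction. The 6 were CXCL11, TAC1, LUM, COL6A6, GALR1 (a galanin receptor) and SCARNA16 (a small RNA gene). TAC1 had 59.0 and 76.1 CPM inside the class at 6 months and 12.4 and 10.8 at 18 months (-3.00 ± 0.38; edgeR adjusted p = 0.0124). CXCL11 had 51.1 and 43.8 CPM inside the class at 6 months and 2.81 and 4.74 at 18 months (-4.18 ± 0.47; edgeR adjusted p = 0.00798). LUM had 62.8 and 39.4 CPM inside the class at 6 months and 10.0 and 4.06 at 18 months (-3.30 ± 0.42; edgeR adjusted p = 0.0127). LUM fell by 3.30 inside the class against 4.73 in whole libraries, and TAC1 also fell less inside it. CXCL11 fell more inside the class, by 4.18 against 3.77. DCN, in contrast, had 1238 and 1370 CPM inside the class at 6 months and 902 and 921 at 18 months and did not pass (-0.93 ± 0.53; edgeR adjusted p = 0.450). COL6A1 had 125 and 104 CPM inside the class at 6 months and 173 and 150 at 18 months, with a fold of 0.06 ± 0.38 (edgeR adjusted p = 0.958). The median over the 63 was -0.81 inside the class, 0.04 for all genes tested there and -2.56 in whole libraries. Pooled and scaled by class totals, the median of the 63 was -0.35, with 0.66 for all genes. In place of 6, 2 genes passed when replicate 3 was left out, 26 when replicate 4 was, and 10 by DESeq2. Over all genes tested inside the class 70 were higher, and 43 of these had the largest share of their UMIs in spermatogonium-like barcodes. The source of those UMIs was not tested. Different clusters held most of the class at the 2 ages (clusters 0, 1, 3 and 7 at 6 months, 4 in replicate 3 and 5 in replicate 4). Its median mitochondrial share was 6.19% and 7.02% at 6 months and 14.6% and 13.8% at 18 months, and the part of either in the falls was not tested.

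**Figure D4:**
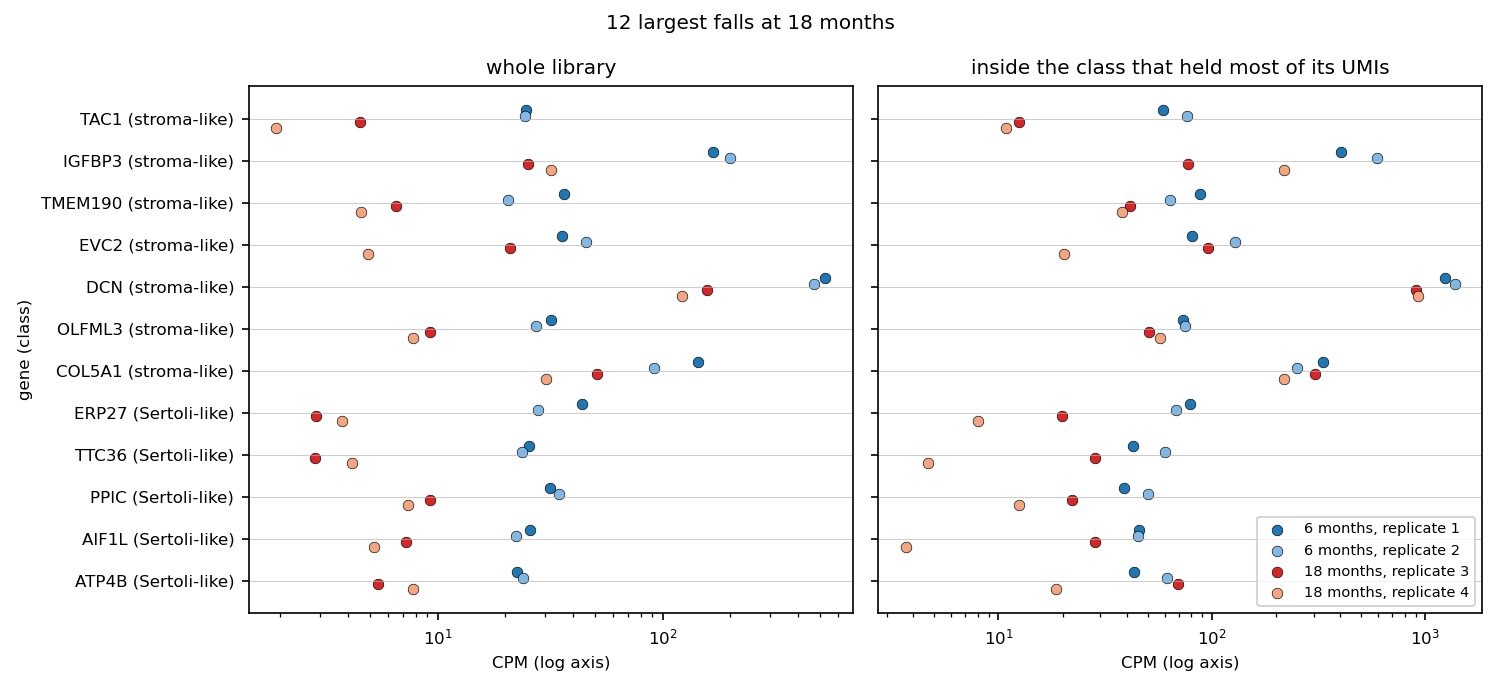
CPM (log axis) of the 12 genes with the largest fall, in whole libraries (left) and inside the class with the largest share of their UMIs, stroma-like for 7 and Sertoli-like for 5 (right), 1 point per library. DCN went from 528 and 472 to 158 and 122 CPM in whole libraries and from 1238 and 1370 to 902 and 921 inside stroma-like barcodes, while ERP27 lay apart by age in both panels.

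Of the 29 genes that fell and had the largest share of their UMIs in Sertoli-like barcodes, 22 also fell inside that class. ERP27, a protein of the endoplasmic reticulum, had 43.8 and 28.1 CPM at 6 months and 2.90 and 3.78 at 18 months (-4.38 ± 0.55; edgeR adjusted p = 0.0334). Inside the class it had 79.0 and 68.1 CPM at 6 months, 19.9 in replicate 3 and 8.01 in replicate 4 (-3.59 ± 0.53; edgeR adjusted p = 0.0156). TTC36, a tetratricopeptide repeat protein, had 25.6 and 23.8 CPM at 6 months and 2.85 and 4.18 at 18 months (-3.74 ± 0.53; edgeR adjusted p = 0.0356). Inside the class it had 42.7 and 60.4 CPM at 6 months, 28.3 in replicate 3 and 4.67 in replicate 4 (-2.98 ± 0.67; edgeR adjusted p = 0.0464). For both genes replicate 3 was the adolescent library nearer to 6 months inside the class. PPIC, a cyclophilin, fell by 3.00 in whole libraries and by 2.48 inside the class. AIF1L, an actin-binding protein, fell by 2.99 in whole libraries and did not pass inside the class (-2.88 ± 0.71; edgeR adjusted p = 0.0532). ATP4B, the beta subunit of a proton pump, fell by 2.73 in whole libraries and did not pass inside the class, where replicate 3 had 69.2 CPM, above the 43.3 and 61.9 CPM of 6 months.

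All 29 such genes could be tested inside Sertoli-like barcodes, and 22 passed (75.9%, against 1.31% lower among all 8652 genes tested there). The 29 were chosen for their fall in the same libraries, so this share gives no independent evidence of direction. All 29 had a fold below 0, with a median of -3.00 inside the class, 0.08 for all genes tested there and -3.43 in whole libraries. Besides ERP27, TTC36 and PPIC the 22 held PCOLCE2, which enhances procollagen processing (-5.63 ± 0.72; edgeR adjusted p = 0.00941), and TINAGL1, a matrix protein of basement membranes (-5.13 ± 0.69; edgeR adjusted p = 0.0101). They also held the dipeptidase DPEP1 (-4.13 ± 0.64; edgeR adjusted p = 0.0180), the mitochondrial carbonic anhydrase CA5A (-3.65 ± 0.59; edgeR adjusted p = 0.0223) and the extracellular superoxide dismutase SOD3 (-2.97 ± 0.60; edgeR adjusted p = 0.0345). The muscle myosin light chain MYL2 was among them as well (-4.36 ± 0.68; edgeR adjusted p = 0.0195). These 6 were picked from those that passed after their values were seen. The 29 genes together took 6893 and 7683 CPM of Sertoli-like barcodes at 6 months, 2284 in replicate 3 and 523 in replicate 4. Both adolescent libraries lay below, and replicate 4, which had 978 Sertoli-like barcodes against 161 in replicate 3, lay lowest. The same 29 genes were also lower at 18 months outside Sertoli-like barcodes. There they took 1397 and 1350 CPM at 6 months, 163 in replicate 3 and 129 in replicate 4. Where those UMIs came from was not tested. Pooled and scaled by class totals, the median of the 27 genes with at least 3 UMIs at each age was -2.63, with 0.96 for all genes, and it was -1.08 over 24 genes without replicate 4. Leaving out any of the 4 libraries left between 20 and 29 of the 29. Over all genes tested inside the class 113 were lower, 82 of them with the largest share of their UMIs in Sertoli-like barcodes. Of 127 that were higher, 39 had it in spermatogonium-like barcodes and 14 were mitochondrial features. The class was held by clusters 2, 10, 14 and 16 at 6 months, by cluster 8 in replicate 4 and by clusters 22 and 35 in replicate 3. Its median mitochondrial share was 0.249% and 0.294% at 6 months and 10.8% and 10.1% at 18 months, and the part of these differences in the falls was not tested.

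INHA, SOX9 and FSHR, well-known genes of Sertoli cells, did not pass the edgeR test in whole libraries. Of 14 tested Sertoli hormones, receptors and regulators, DMRT1 rose and 0 fell, with a median of -0.93 (0.04 by library totals), 5 at an unadjusted p below 0.05, and DESeq2 called 1 higher and 3 lower. DMRT1 had the largest share of its UMIs in spermatogonium-like barcodes. INHA, the alpha subunit of inhibin, had 3323 and 4858 CPM at 6 months, 345 in replicate 3 and 2758 in replicate 4 (-2.09 ± 1.21; edgeR adjusted p = 0.351). SOX9, a Sertoli cell factor, had 110 and 34.7 CPM at 6 months, 68.9 in replicate 3 and 201 in replicate 4 (0.09 ± 0.85; edgeR adjusted p = 0.960). FSHR, the receptor of follicle-stimulating hormone, had 19.6 and 23.1 CPM at 6 months, 4.54 in replicate 3 and 21.7 in replicate 4 (-1.45 ± 0.84; edgeR adjusted p = 0.352). In each of the 3, replicates 3 and 4 lay far apart, in the order of their Sertoli-like UMI shares. Of 21 Sertoli secreted, transport and junction genes 0 passed in the edgeR test, with a median of -0.72 (0.29 by library totals), 5 at an unadjusted p below 0.05 and 6 called lower by DESeq2. TIMP2, a metalloproteinase inhibitor, had 13297 and 9440 CPM at 6 months, 950 in replicate 3 and 5132 in replicate 4 (-2.63 ± 1.24; edgeR adjusted p = 0.266). The Sertoli marker list summed to 3629 and 5019 CPM at 6 months, 661 in replicate 3 and 3249 in replicate 4, with 0 of its 10 tested members called.

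Of 9 steroid synthesis genes tested, 1 fell and 0 rose in the edgeR test, with 5 at an unadjusted p below 0.05, and DESeq2 called 1 higher and 3 lower. CYP11A1, which cuts the cholesterol side chain in the opening step of steroid synthesis, had 22.8 and 19.8 CPM at 6 months and 3.99 and 1.33 at 18 months (-4.15 ± 0.44; edgeR adjusted p = 0.0334). Pooled over the 4 libraries 50.5% of its UMIs lay in Sertoli-like barcodes, from 30.1% in replicate 3 to 63.1% in replicate 2, while its level was highest in Leydig-like barcodes, at 1028 CPM. Inside Sertoli-like barcodes it did not pass (-2.86 ± 0.83; edgeR adjusted p = 0.0750). STAR, which carries cholesterol into mitochondria and lay mostly in Leydig-like barcodes, had 12.7 and 3.36 CPM at 6 months and 0.164 and 2.05 at 18 months, and did not pass (-3.67 ± 1.23; edgeR adjusted p = 0.151). Of the 11 Leydig markers listed 5 were in the files, with summed levels of 102 and 86.3 CPM at 6 months and 122 and 82.3 at 18 months. Of 16 cholesterol synthesis genes 0 passed in the edgeR test, with a median of -0.70 (0.34 by library totals), 6 at an unadjusted p below 0.05 and 1 called lower by DESeq2.

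Lists that mixed classes had members moving both ways. Over all tested genes 1.91% rose and 0.708% fell. In the IGF system 3 of 15 tested members rose and 1 fell: IGFBP3 is the member that fell, and IGFBP2, a binding protein, and IGF2BP1 and IGF2BP3, which bind mRNAs, rose by 2.69, 3.42 and 2.32 and had the largest share of their UMIs in spermatogonium-like barcodes. RARB, a retinoic acid receptor, was the 1 retinoid gene of 16 that passed the edgeR test, with 4.61 and 4.03 CPM at 6 months and 56.5 and 24.5 at 18 months (2.09 ± 0.36; edgeR adjusted p = 0.0446). Of the 16, 10 were at an unadjusted p below 0.05, and DESeq2 called 2 higher and 4 lower. Among 7 neuropeptide genes SCG3, a granin, rose by 3.05 ± 0.54 (edgeR adjusted p = 0.0466) while TAC1 fell. SCG3 reached 10.6 and 3.91 CPM at 18 months, from 0.434 and 0.336 at 6 months.

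In 10 further lists 0 members passed in either direction in the edgeR test. Over all 13692 tested genes 3078 were at an unadjusted p below 0.05 in that test, and DESeq2 called 6.16% higher and 3.64% lower. Endothelial genes had a median of 0.38 over 22 members (1.46 by library totals), with 5 at an unadjusted p below 0.05 and 1 called by DESeq2, as higher. CA4, a carbonic anhydrase of capillaries, had 63.3 and 89.2 CPM at 6 months and 471 and 514 at 18 months, without overlap, and did not pass (1.75 ± 0.52; edgeR adjusted p = 0.120). PECAM1, a junction protein of endothelium, had 20.1 and 22.5 CPM at 6 months and 70.7 and 38.7 at 18 months (0.28 ± 0.32; edgeR adjusted p = 0.639). Lymphocyte genes had a median of -1.15 over 21 members (0.01 by library totals), with 0 at an unadjusted p below 0.05 and 0 called by DESeq2. That median was -1.97 without replicate 1 and 0.96 without replicate 2. Lymphocyte markers summed to 131 and 1093 CPM at 6 months and 605 and 588 at 18 months, so that the prepubertal replicates lay further apart than the ages. Stress and immediate early genes, which dissociation can raise, had a median of -0.44 over 27 members (0.59 by library totals), with 4 at an unadjusted p below 0.05 and 1 called by DESeq2, as higher. JUN, a transcription factor of that response, had 3276 and 2955 CPM at 6 months and 5190 and 4272 at 18 months (-0.41; edgeR adjusted p = 0.765). TGF-beta, activin and BMP genes had a median of 0.02 over 29 members (1.15 by library totals), with 10 at an unadjusted p below 0.05, and DESeq2 called 1 higher and 4 lower. Notch and hedgehog genes had a median of -0.34 over 22 members (0.85 by library totals), with 7 at an unadjusted p below 0.05, and DESeq2 called 1 in each direction. Smooth muscle and pericyte genes had a median of -0.43 over 20 members (0.59 by library totals), with 10 at an unadjusted p below 0.05, and DESeq2 called 2 in each direction. Macrophage and complement, antigen presentation, glycolysis and nuclear respiratory genes had medians of -0.54 to -0.20 (0.49 to 0.87 by library totals). These lists had between 0 and 4 members at an unadjusted p below 0.05, and DESeq2 called 2 of their members, both lower macrophage and complement genes. The macrophage and complement median was -0.96 without replicate 1 and 0.95 without replicate 2. Of the 37 mitochondrial features 16 were tested and 0 passed, with a median of 0.36. The barcode filter used these same features and took more barcodes at 18 months, so this result cannot show whether they changed. Their share of kept UMIs was 3.43% and 4.31% at 6 months and 9.66% and 8.19% at 18 months.

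**Figure D5:**
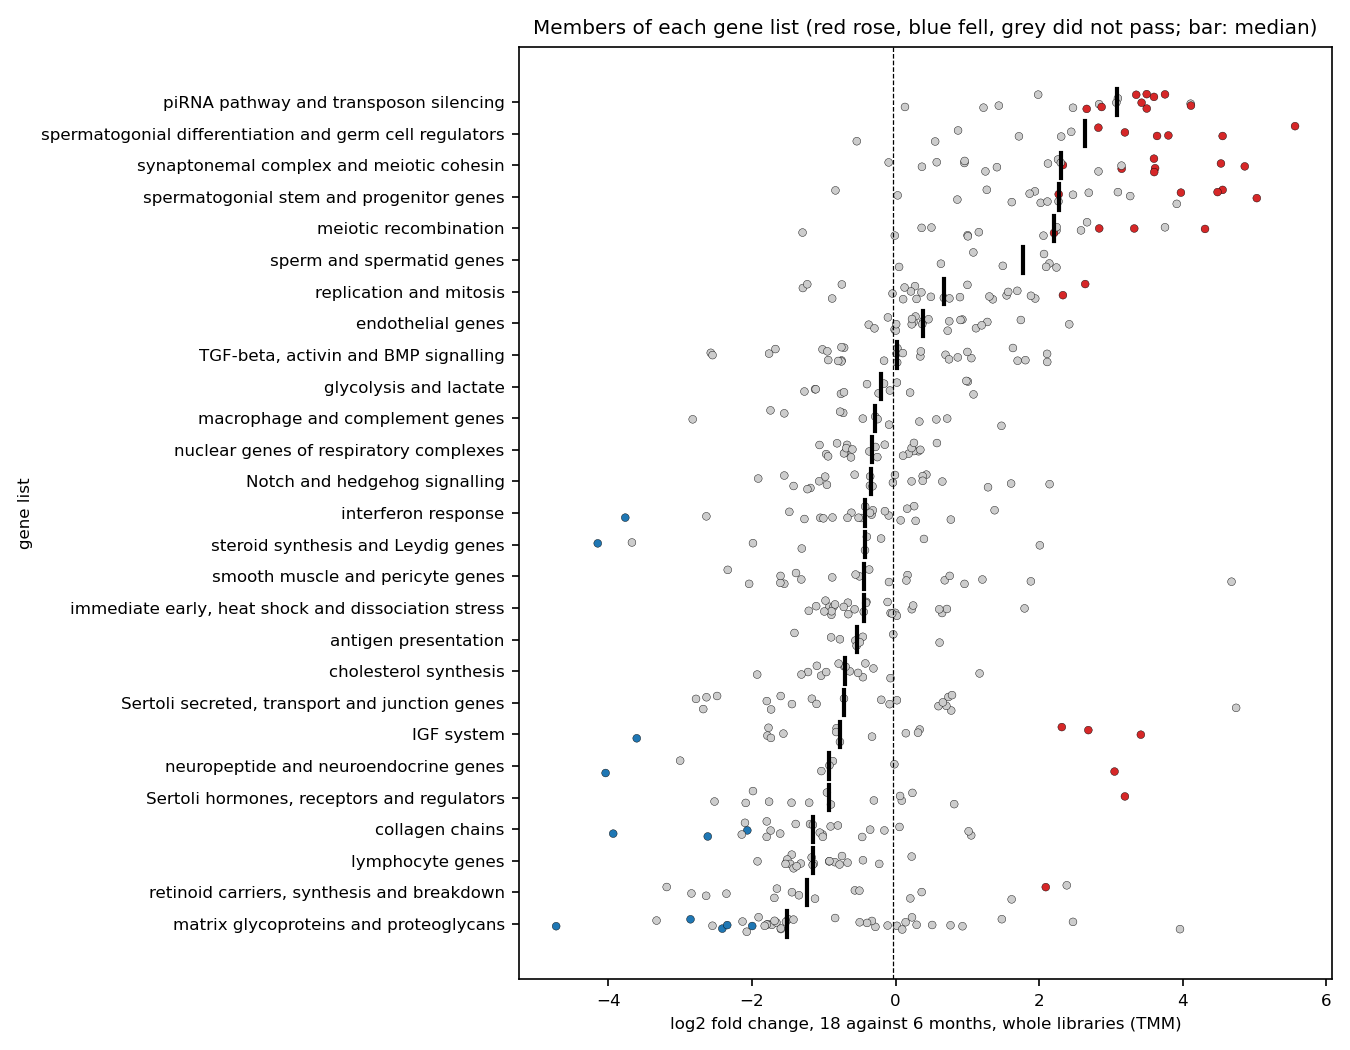
Log2 fold change at 18 against 6 months in whole libraries (x axis, TMM scale) of every tested member of each gene list (y axis); red members rose, blue fell, grey did not pass, black bars are list medians and the dashed line is the median of all genes, -0.04. The 5 lists of spermatogonial, meiotic and piRNA genes have medians of 2.21 to 3.09 and hold most of the red points, sperm and spermatid genes have a median of 1.78 and 0 red points, and the matrix list has the lowest median, -1.51.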

How the data were processed

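Single-cell RNA of yak testis was measured with 10x Genomics libraries. The deposited matrices are raw UMI counts, 1 value for each gene in each barcode, from Cell Ranger (5.0.0 per the file headers, 2.1.1 per the submitters' processing notes). Reads were assigned to a genome build not given in the sources used here. The files name 26961 features, 11239 of them without a symbol; since 0 of them matched by identifier in the reference table, gene symbols come from the files alone and no sequences or positions are given. No barcode had fewer than 500 UMIs. Intervals and limits cover counting error only.

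From these counts, kept barcodes (at least 300 genes, at most 20% mitochondrial UMIs) were summed per library, with doublets kept. The test was that of edgeR 4.0.16 (R 4.3.3; quasi-likelihood, TMM, filterByExpr, Benjamini-Hochberg adjusted p below 0.05 over all tested genes), and the SE is the fold divided by the root of F. The biological coefficient of variation was 0.379. DESeq2 1.42.0 was an alternative. The script was also run on simulated counts with known changes, drawn with a common dispersion and the same gene profile for both ages. These counts lacked the shift in composition of the real libraries, so they do not show how the test performs on them.

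Barcodes of the 4 libraries were clustered in scanpy 1.11.5 (Python 3.11.15, igraph 0.11.9; 10000 UMIs target, 2000 variable genes, 30 components, 15 neighbours, Leiden resolution 2). Clusters were named "-like" from 14 marker lists with at least 3 raised markers, without correction between libraries, so clusters found in 1 library need not be cell types. Tests inside the 3 classes that held most of the called genes and inside endothelial-like barcodes were chosen after the data were seen. So were pooled ratios of genes with at least 3 UMIs at each age. Inside endothelial-like barcodes 3 of 7801 tested genes were higher and 3 lower.

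The comparison, the 28 gene lists and the markers were chosen with earlier results of these data known. Named genes were those with a symbol that passed: the 12 largest rises and 12 largest falls with at least 20 CPM in both libraries of the higher age, and up to 4 members per list and direction with the lowest adjusted p. Of lists with 0 passing members, the 2 most abundant could be named; class markers were named as values. Other list members and the genes that passed inside a class were named after their values were seen. Genes at overlapping loci or with close copies cannot be told apart in these counts.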

Additional observations from a re-analysis of the deposited data

How the results depend on the processing

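No paired analysis was possible because the labels give the ages different replicate numbers (1 and 2, 3 and 4). The 261 higher and 97 lower genes became 187 and 63 with RLE size factors, 2849 and 81 by library totals, 843 and 499 with DESeq2, and 1394 and 784 with no filter on low counts. With a mitochondrial limit of 10% they were 524 and 242, with 40% 148 and 43, with no limit 168 and 50, and with at least 500 genes per barcode 147 and 67. Removing suspected doublets gave 252 and 97, leaving out Sertoli-like barcodes 972 and 362. Leaving out spermatogonium-like barcodes gave 0 and 0 with edgeR (1369 genes at an unadjusted p below 0.05), 143 and 117 with DESeq2, and 53 and 11 by library totals. Leaving out the unnamed germ cluster as well gave 0 and 0. The cause of these shifts was not tested.

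Leaving out 1 library at a time gave between 0 and 1539 higher and between 0 and 1411 lower genes with edgeR, and between 168 and 783 higher and 73 and 1423 lower with DESeq2 (208 lower without replicate 3); the lone library of an age was then assumed to vary like the others. Of the 51 named genes that passed, 51 did so with DESeq2, 47 by library totals, 43 with RLE, 39 with the 40% limit, 4 without replicate 1, 0 without replicate 2, 11 without replicate 3 and 51 without replicate 4. Without spermatogonium-like barcodes 49 could be tested, 0 passed, and CENPF (-0.045) and IGF2BP3 (-0.067) turned.

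The spermatogonium-like UMI share at 6 months, 0.966% on average, was 1.82% at Leiden resolution 1 and 0.906% without doublets, and the macrophage-like share at 18 months, 0.489%, was 0.945% and 0.436%. Inside classes, the 3 risen genes that also passed were 6 by library totals, 0 without doublets and 0 to 7 without 1 library; the 6 of stroma-like barcodes were 10 with DESeq2 and 2 to 26 without 1 library; the 22 of Sertoli-like barcodes stayed between 18 and 29 in every alternative run. The pooled medians without 1 library ran from 0.38 to 0.53 (spermatogonium-like), from -0.49 to -0.29 (stroma-like) and from -3.26 to -1.08 (Sertoli-like). The 6-month spermatogonium-like values rest on 109 barcodes.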
